A study of Mus musculus with 51 samples.

Results

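The interleukin-1 family and inflammasome genes described here were Il1a, Il1b, Il1rn, Il18, Nlrp3, Pycard and Casp1. They were taken by gene symbol, and they are 7 of the 12393 genes to which the array gave at least 1 probe set (a set of short probes for one transcript) with a single symbol. Of the 22626 probe sets tested, 10 carried these symbols: 3 for Il1rn, 2 for Pycard and 1 for each of the other genes. Each gene is represented by its probe set with the highest mean over all 51 arrays, and no filter removed a member.

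Alveolar macrophages, which patrol the surface of the lung's air sacs, were collected from mice after exposure to Aspergillus fumigatus spores (conidia) or to polystyrene beads, and their RNA was hybridized to Affymetrix arrays. The study asked whether these cells respond differently in a normal and in an immune-compromised host. The KO mice were gp91phox-/-: they have no functional Cybb product, which phagocytes need for the oxidative burst. The WT mice were C57Bl/6. KO arrays numbered 21, with 3 each for e6 conidia at 2 h, e7 conidia at 2 h, e6 conidia at 4 h, e7 conidia at 4 h, mock treatment at 2 h, mock treatment at 4 h, and untreated cells at 0 h. WT arrays numbered 30, with 4 for each of the same conditions and 2 for beads at 4 h. The labels write the doses as e6 and e7, and age and sex of the mice are not given in the sources used here. The 4 WT arrays titled as 4 h mock name conidia in another label field, and the titles were followed. The labels call the arrays of a group biological replicates without saying how many mice stood behind each, so p-values measure the spread between arrays as labelled. In such bulk samples, fewer cells of a type and less RNA per cell cannot be told apart.

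Interleukin-1 alpha and beta are the founding members of a cytokine family that macrophages release early in infection and that draws neutrophils into the tissue through the shared receptor IL1R1. Interleukin-1 beta and interleukin-18 are made as inactive precursors. The inflammasome cuts them: the sensor NLRP3 gathers the adaptor ASC, encoded by Pycard, which activates the protease caspase-1. Interleukin-1 alpha needs no such cut, and the antagonist encoded by Il1rn occupies the receptor without signalling. Arrays measure transcripts, so cleavage and release lie outside these data.

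Values are log2 of the deposited signal. Every array had a mean signal, trimmed by 2% at each end, between 500.18 and 500.24, and its median lay between 68.8 and 117.7. Cybb read 6.77 to 9.06 on KO arrays and 10.59 to 12.12 on WT arrays, with no overlap (log2 difference -2.75 ± 0.11, adjusted p = 9.66e-22; limma). Of 15 alveolar macrophage markers, 13 were measured, and their mean lay between 12.60 and 13.21 on every array, with none listed at 0. The log2 ratio of the 3' to the 5' control probe sets, a sign of RNA length, ran from 0.92 to 5.32 and was highest in the bead group (4.11 to 5.32). Differences below are limma estimates ± standard error, with Benjamini-Hochberg adjusted p over all 22626 probe sets, and a gene is called at an adjusted p under 0.05.

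The promoters of Il1a and Il1b are shown because these were the interleukin-1 ligands that rose after e7 conidia. Both run 5′ to 3′ on the gene's strand and hold the 250 bases before the transcription start given by RefSeq on GRCm38.p6, at chr2:129309973-129310222 (minus strand) for Il1a and chr2:129371140-129371389 (minus strand) for Il1b. Capitals mark matches to the letters searched on both strands.
Il1a: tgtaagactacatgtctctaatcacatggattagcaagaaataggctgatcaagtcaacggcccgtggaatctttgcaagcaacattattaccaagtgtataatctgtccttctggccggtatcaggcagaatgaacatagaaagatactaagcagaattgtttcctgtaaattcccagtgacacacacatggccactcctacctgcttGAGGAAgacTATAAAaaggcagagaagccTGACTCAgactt
Il1b: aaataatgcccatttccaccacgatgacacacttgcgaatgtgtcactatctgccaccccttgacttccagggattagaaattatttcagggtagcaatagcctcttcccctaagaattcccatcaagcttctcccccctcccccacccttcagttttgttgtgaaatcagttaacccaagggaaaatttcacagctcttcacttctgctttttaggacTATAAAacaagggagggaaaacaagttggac
The Il1a window holds the PU.1 core GAGGAA, named for a macrophage transcription factor, beginning 41 bases before the start. It also holds a TATA box (TATAAA) at 32 bases and, at 12 bases, 1 match to the AP-1 motif. The Il1b window holds TATAAA at 31 bases and no match to the AP-1, PU.1 or C/EBP (TTGCNNAA) letters or to the NF-kB consensus. Over all 32851 promoter windows of this length, 12.4% hold TATAAA, 23.3% GAGGAA, 6.75% TGANTCA, 9.56% TTGCNNAA and 3.9% the NF-kB consensus. These matches describe letters and are not sites shown to be bound.

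At 4 h after e7 conidia no member passed the test in KO macrophages, while in WT macrophages Il1a and Il1b rose, Pycard fell and the other 4 members did not pass. In KO 0.00442% of all probe sets were called (limma), and at an unadjusted p under 0.05, 2 of the 7 members and 1587 of the 22626 probe sets differed. In WT the 3 called members compare with 15.5% of all probe sets called, 5.84% higher and 9.68% lower. The median difference of the 7 members was 0.38 in KO, beside -0.04 over all probe sets, and -0.15 in WT, beside -0.07.

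Il1a, the interleukin-1 that acts without inflammasome cleavage, had 10.79, 11.13 and 11.05 on KO arrays at 4 h after e7 conidia, against 8.96, 9.79 and 9.23 on KO mock arrays. WT arrays had 9.98, 10.27, 10.73 and 10.44 after e7 conidia, against 8.45, 7.93, 9.77 and 8.52 after mock. In both genotypes every e7 array lay above every mock array. The log2 difference was 1.66 ± 0.40 in KO (adjusted p = 0.155) and 1.69 ± 0.34 in WT, a 3.22-fold rise (adjusted p = 0.000928; limma). The KO minus WT difference between these responses was -0.02 ± 0.52 (adjusted p = 0.988), so the call in one genotype and not in the other does not show unequal responses. The WT call was lost when the fit held only the e7 and mock arrays (adjusted p = 0.272) and when the WT e7 arrays 2 and 3 were both left out (1.54, adjusted p = 0.0648).

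The lower dose and the earlier time gave smaller Il1a differences, none of them called. After e6 conidia at 4 h, KO arrays had 9.67, 9.61 and 9.42, and WT arrays 9.40, 9.11, 9.01 and 10.56. Both sets overlapped their mock arrays, with differences of 0.24 ± 0.40 in KO (adjusted p = 0.944) and 0.85 ± 0.34 in WT (adjusted p = 0.903). At 2 h after e7 conidia KO arrays had 9.70, 9.55 and 9.77, against 9.70, 9.31 and 9.54 after mock. WT arrays at 2 h had 9.18, 8.85, 8.80 and 9.59 after e7 conidia, against 8.57, 8.26, 8.0 and 7.90 after mock. The WT e7 arrays at 2 h all lay above their mock arrays (0.92 ± 0.34, adjusted p = 0.161), while the KO arrays overlapped (0.15 ± 0.40, adjusted p = 0.837). Comparisons of e6 and of e7 conidia with mock share the mock arrays. The e7 conidia minus e6 conidia difference at 4 h was 1.42 ± 0.40 in KO (adjusted p = 0.0713) and 0.83 ± 0.34 in WT (adjusted p = 0.0954). Between the doses at 4 h, 0.897% of all probe sets were called in KO and 16.4% in WT, 6.42% higher and 10% lower.

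**Figure D1:**
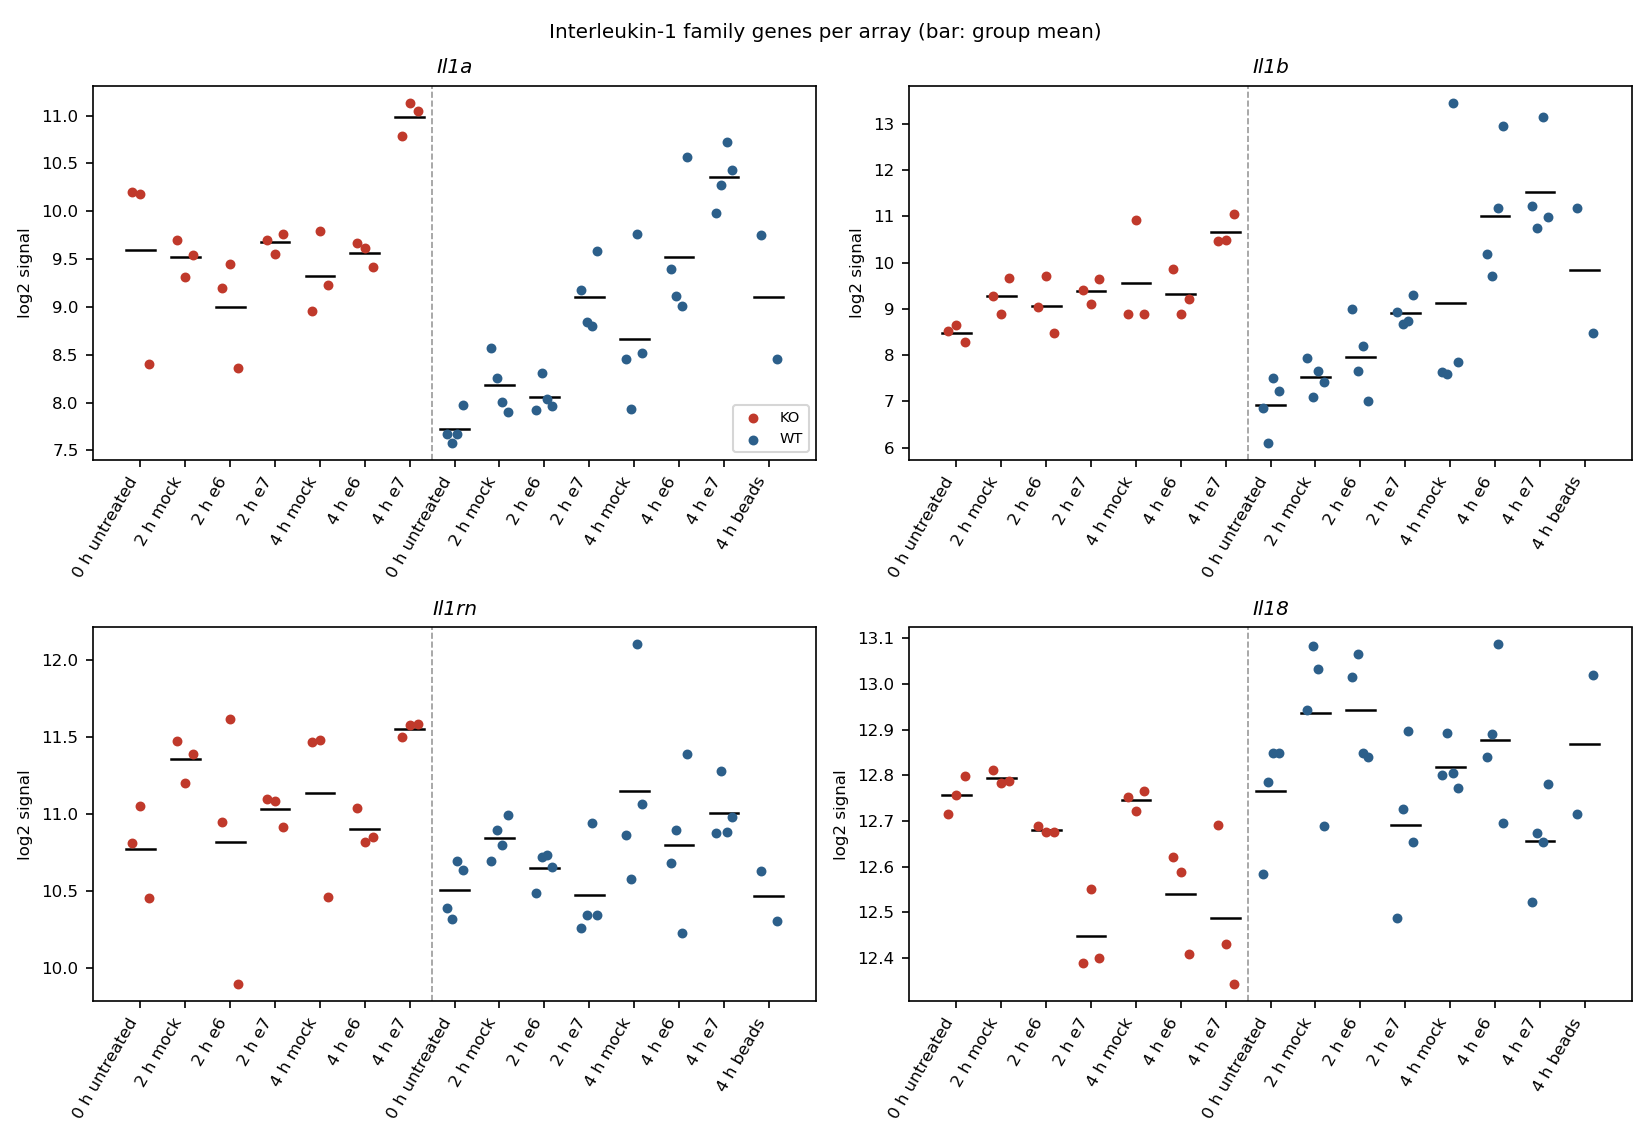
Log2 signal of Il1a, Il1b, Il1rn and Il18 on each of the 51 arrays, by group along the x axis, KO in red and WT in blue; each point is an array and the bar its group mean. Il1a was highest at 4 h after e7 conidia in both genotypes, and 1 WT mock array at 4 h read 13.45 for Il1b, where the other 3 read 7.59 to 7.86.

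Over all 15 groups, mean Il1a was highest at 4 h after e7 conidia, with 10.99 ± 0.18 in KO (SD, n = 3) and 10.35 ± 0.31 in WT (SD, n = 4), and lowest in untreated WT cells (7.73 ± 0.17, SD, n = 4). Those 2 e7 groups stood apart from each other and from the group next in order, KO at 2 h after e7 conidia (9.67 ± 0.11, SD, n = 3). The other 12 of the 14 steps between neighbouring groups were smaller than the pooled SD of 0.49, and the arrays overlapped. Single arrays of groups further down the order lay within the WT e7 range of 9.98 to 10.73. Among them were WT e6 array 4 at 4 h (10.56) and untreated KO arrays 1 and 2 (10.20 and 10.18).

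Il1b, the ligand that the inflammasome cleaves, gave 10.46, 10.49 and 11.06 on KO arrays at 4 h after e7 conidia, against 8.90, 10.92 and 8.88 after mock. WT arrays at 4 h had 11.23, 10.74, 13.16 and 10.99 after e7 conidia, against 7.63, 7.59, 13.45 and 7.86 after mock. Of the 4 WT mock arrays, 3 lay far below all e7 arrays and 1 lay above them all. The log2 difference was 1.10 ± 0.91 in KO (adjusted p = 0.875) and 2.40 ± 0.79 in WT, a 5.26-fold rise (adjusted p = 0.0336; limma). The KO minus WT difference between the responses was -1.30 ± 1.21 (adjusted p = 0.628), in a comparison with 0.19% of all probe sets called, 0.0972% higher and 0.0928% lower. Without WT mock array 3 it was -2.73 (adjusted p = 0.122), and without KO mock array 2 it was -0.62, with a KO response of 1.78. The WT call for Il1b ended without e7 array 3 (1.85, adjusted p = 0.186), without mock array 1, 2 or 4 (1.88 to 1.97, adjusted p of 0.121 to 0.152) and in the fit of the e7 and mock arrays alone (adjusted p = 0.415). It also ended with array weights (2.28, adjusted p = 0.0894) and with the 3' to 5' ratio as a covariate (2.32, adjusted p = 0.0501). The log2 3' to 5' ratio was 1.26 to 3.83 on the WT e7 arrays and 1.19 to 2.34 on the WT mock arrays at 4 h.

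After e6 conidia at 4 h, Il1b had 9.87, 8.89 and 9.21 on KO arrays and 10.18, 9.70, 11.18 and 12.95 on WT arrays. The KO difference from mock was -0.25 ± 0.91 (adjusted p = 0.98), with 0.0796% of all probe sets called, 0.0442% higher and 0.0354% lower. The WT difference was 1.87 ± 0.79 (adjusted p = 0.968), in a comparison where 0.00884% of all probe sets were called. Without WT mock array 3 the e6 difference in WT became 3.31 (adjusted p = 0.00371), and the e7 difference became 3.83 (adjusted p = 0.000111). At 2 h after e7 conidia, KO arrays had 9.42, 9.10 and 9.65 and WT arrays 8.93, 8.68, 8.74 and 9.31. The 4 WT arrays all lay above their mock arrays (7.95, 7.09, 7.67 and 7.43), yet the difference of 1.38 ± 0.79 was not called (adjusted p = 0.414), with 1.61% of all probe sets called. At 2 h after e7 conidia in WT, 0 of 7 members were called by limma and 3 had an unadjusted p under 0.05, as did 3574 of 22626 probe sets.

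The 3 arrays with the highest Il1b of all 51 were also the 3 with the highest neutrophil markers. Of 14 neutrophil markers, 11 were measured and none was listed at 0, and their mean per array ran from 4.80 to 8.26. At 4 h the summed marker signal over KO arrays ran from 1890 to 2999 after e7 conidia, from 2673 to 2999 after e6 conidia and from 1934 to 3790 after mock. Over WT arrays it ran from 1053 to 8867 after e7 conidia, from 1545 to 12172 after e6 conidia and from 1325 to 25541 after mock. Of the 11 markers, none rose and 2 fell in WT at 4 h after e7 conidia, with a median difference of 0.22. The mean exceeded 7 on 4 arrays: WT mock 3 (8.26), WT e6 4 (7.59), WT e7 3 (7.39) and KO e6 1 (7.08), all at 4 h. KO e6 1 stood out by this mean but not by the summed signal, which was at most 2999 in its group. Its median signal over all probe sets was 114, in a range of 68.8 to 117.7 over the 51 arrays. WT mock 3 also had a monocyte and dendritic cell marker mean of 7.47, against 6.13 to 6.65 on its group's other arrays. S100a8, which encodes an abundant neutrophil calcium-binding protein, read 13.75, 12.77 and 12.45 on the 3 WT arrays, against at most 11.15 and a median of 8.37 on the 47 arrays under 7. Mmp9, a neutrophil granule protease, read 9.63, 9.11 and 9.40 there, against at most 6.59 on the others. The markers did not all follow: 3 of the 11 (S100a8, S100a9 and Mmp9) lay on all 3 arrays above each of the 47 arrays under 7, and 7 of the 11 lay on all 3 above the median of those 47. Elane lay above that median on none of the 3, Camp and Mmp8 on 1 and Mpo on 2. The array highest in neutrophil markers within its group was also the highest in Il1b in 12 of the 15 groups, and in 7 of the 7 groups at 4 h. At 4 h the same held in 6 of the 7 groups for Il1a, Il1rn and Nlrp3, in 5 for Casp1, in 2 for Pycard and in 1 for Il18. Group sizes alone would give 30.6% of the 15 groups, and the share over all genes was not computed. Without the 4 arrays above 7, the Il1b difference from mock at 4 h in WT was 3.29 after e7 conidia (adjusted p = 0.000202) and 2.66 after e6 conidia (adjusted p = 0.00757), and that of Il1a after e7 conidia was 1.93 (adjusted p = 0.000728). The cutoff of 7 was not planned beforehand, and it leaves out WT mock array 3, the array with the highest Il1b. The adjusted p-values without these arrays follow in part from that choice and are no separate support for a rise. On the remaining arrays the part of neutrophil RNA in the Il1b values was not tested.

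**Figure D2:**
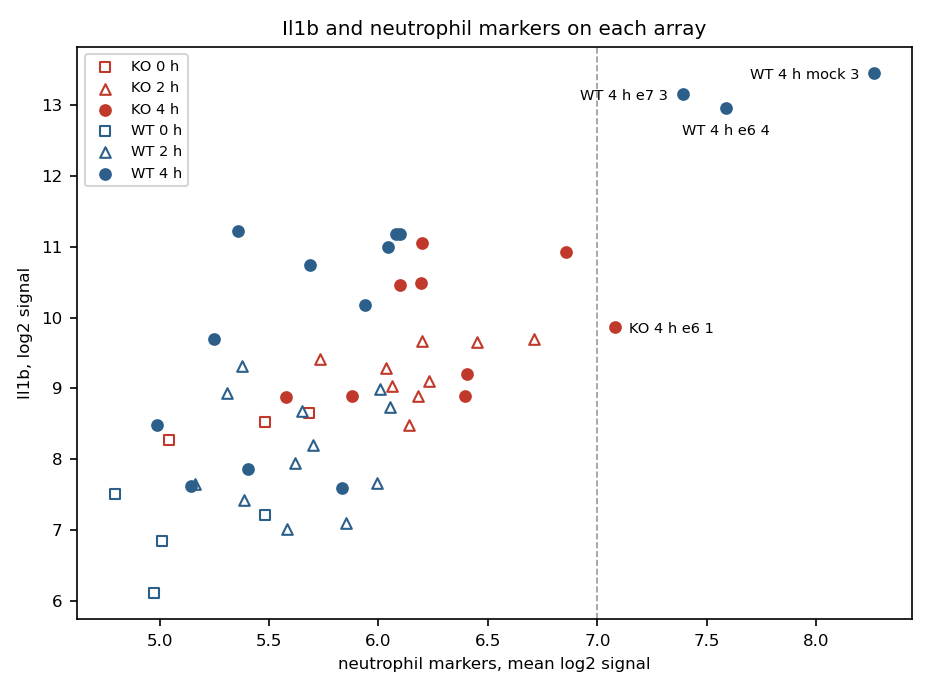
Il1b (y axis, log2 signal) against the mean log2 signal of 11 neutrophil markers (x axis) on each of the 51 arrays, with genotype by colour and time by symbol. The dashed line marks 7; the 3 labelled WT arrays beyond it have the highest Il1b, from 12.95 to 13.45, and the labelled KO array reads 9.87.

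Il1rn, which encodes the interleukin-1 receptor antagonist, was not called in any comparison of conidia with mock by its main probe set. At 4 h after e7 conidia KO arrays had 11.50, 11.58 and 11.59, against 11.46, 11.48 and 10.46 after mock. WT arrays had 10.88, 11.28, 10.88 and 10.98 after e7 conidia, against 10.86, 10.58, 12.10 and 11.07 after mock. The KO e7 arrays lay just above all KO mock arrays (0.42 ± 0.31, adjusted p = 0.857), and the WT arrays overlapped (-0.15 ± 0.27, adjusted p = 0.795). The mock array at 12.10 was the one with the highest neutrophil markers.

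The probe sets of Il1rn disagreed. The second one read 11.03, 12.17, 12.80 and 9.78 on WT arrays at 4 h after e7 conidia, against 9.47, 9.53, 10.88 and 9.93 after mock. Its difference was 1.49 ± 0.35 (adjusted p = 0.00285), opposite in sign to that of the main probe set. Arrays 2 and 3 carried it: without both it was 0.45 (adjusted p = 0.572), and in the fit of these groups alone its adjusted p was 0.336. On KO arrays the same probe set read 10.36, 10.22 and 10.21 after e7 conidia, against 9.83, 10.40 and 9.68 after mock. The direction of the Il1rn response in WT at 4 h is therefore uncertain.

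Il18, which encodes an interferon-gamma-inducing cytokine stored as a precursor, moved within narrow limits. Its group means spanned 0.50 with a pooled SD of 0.12. At 2 h after e7 conidia KO arrays had 12.39, 12.55 and 12.40, against 12.81, 12.78 and 12.79 after mock. WT arrays at 2 h had 12.49, 12.73, 12.90 and 12.65 after e7 conidia, against 12.94, 13.08, 13.03 and 12.69 after mock. The KO arrays did not overlap and the WT arrays did. Neither difference was called (KO -0.35 ± 0.12, adjusted p = 0.0574; WT -0.25 ± 0.10, adjusted p = 0.214). The KO difference was called with array weights (adjusted p = 0.00953), with a floor of 50 (0.0207) and with dim probe sets left out (0.0453). At 4 h the differences were -0.26 ± 0.12 in KO and -0.16 ± 0.10 in WT.

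Among the inflammasome genes, Casp1 fell and Nlrp3 rose in KO macrophages at 2 h after e7 conidia. These 2 of 7 called members compare with 8.65% of all probe sets, 6.11% higher and 2.54% lower. The median difference over all probe sets was 0.26 there and 0.01 after quantile normalization of the arrays, a shift of 0.26, and the share of all calls that were higher was 70.6% as deposited and 40.7% after it. The median of the 7 members was -0.32. The log2 3' to 5' ratio at 2 h was 1.45 to 3.0 on the KO e7 arrays and 0.92 to 1.22 on the KO mock arrays, and 2.09 to 4.85 on the WT e7 arrays and 0.93 to 1.47 on the WT mock arrays. Its part in the differences below is given only where the ratio was a covariate.

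Casp1, the protease that cuts the interleukin-1 beta and interleukin-18 precursors, had 10.26, 10.60 and 10.40 on KO arrays at 2 h after e7 conidia, against 10.78, 11.15 and 11.11 after mock. WT arrays at 2 h had 10.90, 10.98, 10.86 and 10.60 after e7 conidia, against 10.66, 10.56, 10.50 and 10.54 after mock. The KO e7 arrays lay below all KO mock arrays, and of the WT e7 arrays 3 lay above all WT mock arrays. Casp1 fell by 0.59 ± 0.13 in KO (adjusted p = 0.00436; -0.57 and 0.00798 with the 3' to 5' ratio as a covariate), and the WT difference was 0.27 ± 0.11 (adjusted p = 0.194). The KO minus WT difference between these responses was itself called, at -0.87 ± 0.17 (adjusted p = 0.00625; limma), with 1.45% of all probe sets called in that comparison, 1.18% higher and 0.261% lower. It passed in 21 of 22 alternatives and was lost in the fit of the 4 groups alone (adjusted p = 0.0629). None of the 22 took untreated cells in place of mock as the reference. The KO mock mean at 2 h, 11.01, was the highest Casp1 mean of the 15 groups. KO mock arrays at 2 h also read higher in Casp1 than WT mock arrays, by 0.45 ± 0.12 (adjusted p = 0.0309), and they enter the difference between the responses. That mock difference lost its call in 6 of 15 alternatives, 5 of which left out 1 array (0.38 to 0.45, adjusted p of 0.062 to 0.215). Against untreated KO cells in place of mock, the KO e7 difference was -0.36 (adjusted p = 0.0714). At 4 h after e7 conidia the differences were -0.24 ± 0.13 in KO and -0.19 ± 0.11 in WT, neither called.

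Nlrp3, the sensor, had 9.10, 8.67 and 8.93 on KO arrays at 2 h after e7 conidia, against 7.83, 7.81 and 8.01 after mock. WT arrays at 2 h had 8.19, 7.76, 8.40 and 8.52 after e7 conidia, against 8.30, 7.71, 8.50 and 8.58 after mock. The KO groups did not overlap and the WT groups did. Nlrp3 rose by 1.02 ± 0.33 in KO (2.02-fold, adjusted p = 0.0438), and the WT difference was -0.06 ± 0.28 (adjusted p = 0.956). The KO minus WT difference between these responses, 1.07 ± 0.43, was not called (adjusted p = 0.199). The KO call ended without any 1 of its 6 arrays (0.91 to 1.13, adjusted p of 0.057 to 0.142), after quantile normalization (0.94, adjusted p = 0.0578) and with the 3' to 5' ratio as a covariate (0.89, adjusted p = 0.0887). Against e6 conidia, KO e7 arrays at 2 h were higher in Nlrp3 by 1.07 ± 0.33 (adjusted p = 0.0398), a call lost in 6 of 14 alternatives, 5 of which left out 1 array (0.93 to 1.18, adjusted p of 0.0573 to 0.138). At 4 h the e7 differences of Nlrp3 from mock were 0.38 ± 0.33 in KO and 0.57 ± 0.28 in WT (adjusted p = 0.881 and 0.178), and the WT difference was 0.85 without mock array 3 (adjusted p = 0.0445).

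Pycard, which encodes the adaptor ASC, had 10.38, 11.02 and 10.72 on KO arrays at 4 h after e7 conidia, against 10.84, 11.10 and 10.25 after mock, and the groups overlapped (-0.02 ± 0.23, adjusted p = 0.994). WT arrays at 4 h had 10.06, 9.74, 9.54 and 10.64 after e7 conidia, against 10.38, 10.81, 10.59 and 10.88 after mock. Of the 4 WT e7 arrays, 3 lay below all mock arrays. Pycard fell by 0.67 ± 0.20 in WT, a 1.59-fold lower level (adjusted p = 0.0189). The KO minus WT difference between the responses was 0.65 ± 0.31 (adjusted p = 0.271). The WT call ended without e7 array 2 or 3 (-0.59 and -0.52), without mock array 2 or 4 (-0.62 and -0.60), without e7 arrays 2 and 3 together (-0.31, adjusted p = 0.613) and without the 4 arrays high in neutrophil markers (-0.54, adjusted p = 0.173). It also ended with the mean of both probe sets (-0.42, adjusted p = 0.22) and in the fit of these groups alone (adjusted p = 0.317). The 2 WT e7 arrays lowest in Pycard were those highest in the second Il1rn probe set. These arrays, 2 and 3, also had the lowest median signals of the 51 arrays, at 73.0 and 68.8. After quantile normalization the WT difference of Pycard was -0.62 (adjusted p = 0.0299; limma).

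Between the doses, Pycard was lower after e7 than after e6 conidia at 4 h in WT (-0.69 ± 0.20, adjusted p = 0.0158) and at 2 h in KO (-0.74 ± 0.23, adjusted p = 0.0455). The WT call was lost in 7 of 18 alternatives, among them without e6 array 3 (-0.50, adjusted p = 0.117), without e7 array 2 (-0.60, adjusted p = 0.0773) or 3 (-0.53, adjusted p = 0.115) and without both (-0.33, adjusted p = 0.585). The KO call was lost in 7 of 14, 5 of which left out 1 array (-0.79 to -0.64, adjusted p of 0.0943 to 0.144). At 2 h, KO arrays had 10.23, 10.20 and 10.35 after e7 conidia, against 10.70, 11.21 and 11.11 after e6 conidia, with no overlap. Between the doses, 1 of 7 members was called at 4 h in WT, near the 16.4% of all probe sets called there, and 2 of 7 at 2 h in KO, where 7.06% of all probe sets were called, 4.76% higher and 2.29% lower. The second Pycard probe set lay under a signal of 50 on 41 of 51 arrays, and averaging it in turned the KO difference to 0.14 (adjusted p = 0.78).

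**Figure D3:**
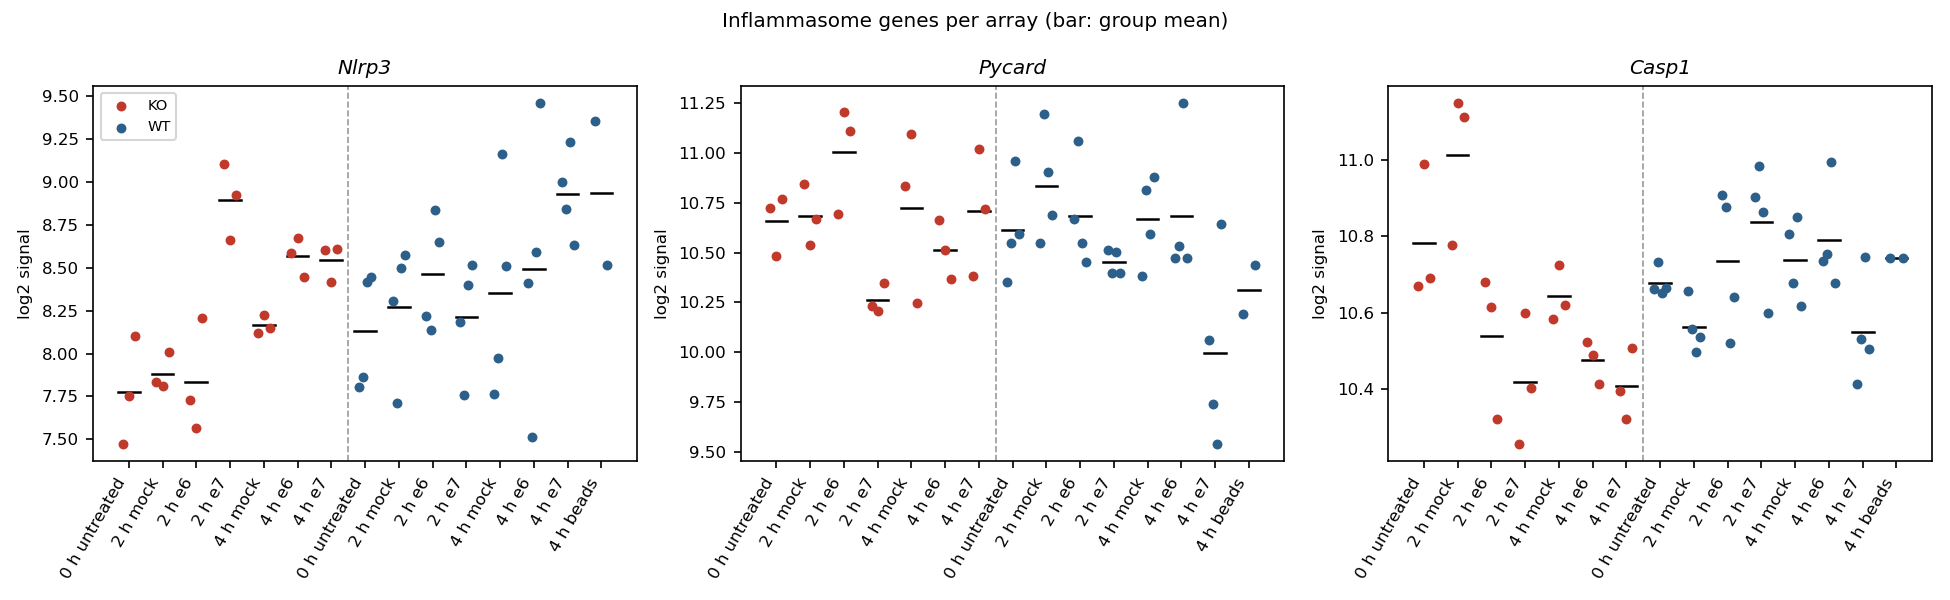
Log2 signal of Nlrp3, Pycard and Casp1 on each of the 51 arrays by group, KO in red and WT in blue; points are arrays and bars group means. In KO at 2 h after e7 conidia Nlrp3 read 8.67 to 9.10 and Casp1 10.26 to 10.60, and Pycard was lowest in WT at 4 h after e7 conidia, at 9.54 to 10.64.

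**Figure D4:**
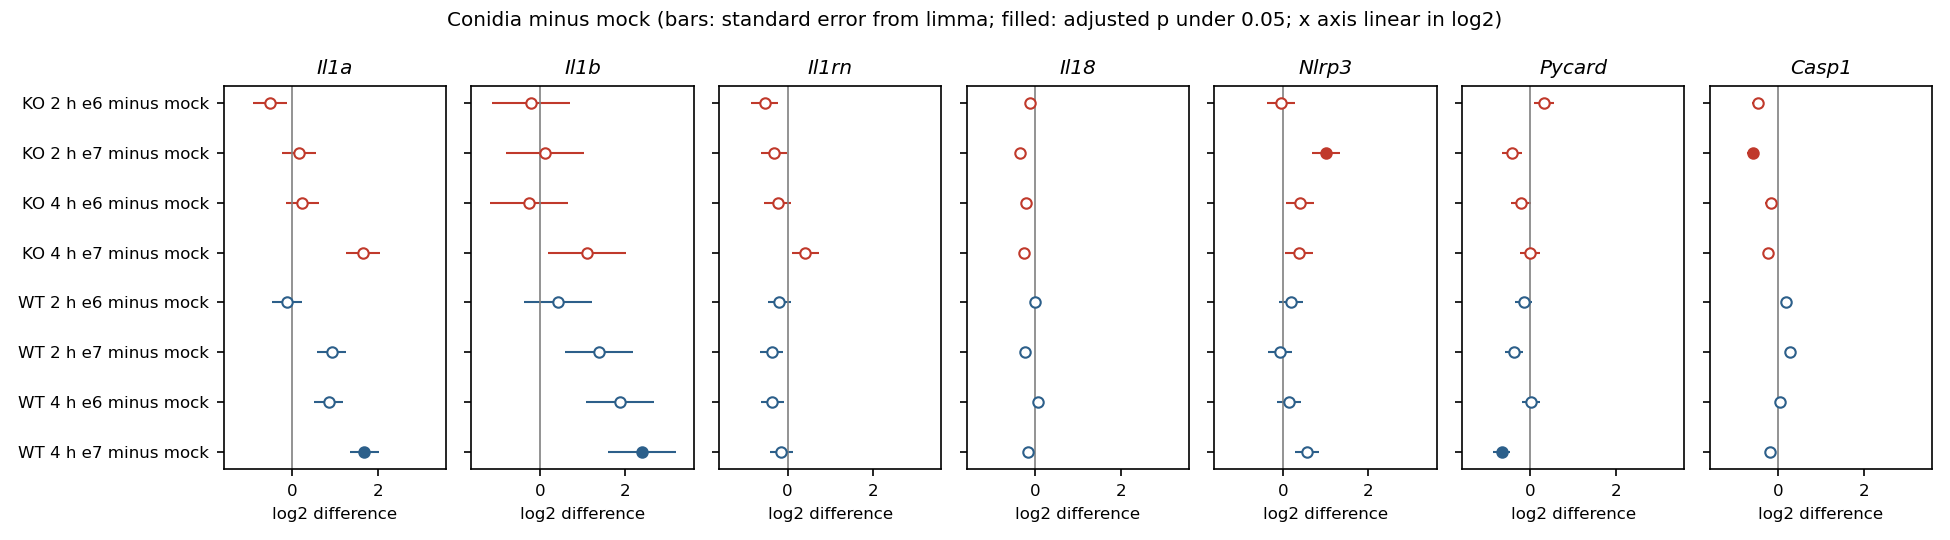
Conidia minus mock for each of the 7 genes (x axis, log2 difference) in the 8 comparisons of genotype, time and dose, KO above WT; horizontal bars are limma standard errors and filled points have an adjusted p under 0.05. The 5 filled points are Il1a, Il1b and Pycard in WT at 4 h after e7 conidia and Nlrp3 and Casp1 in KO at 2 h after e7 conidia.

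KO macrophages carried more Il1a and less Il18 transcript than WT macrophages, averaged over the 7 conditions that both genotypes had, and the main probe set of Il1rn was also higher. These 3 called members compare with 33.4% of all probe sets called in that comparison, 21.9% higher and 11.6% lower, so a call here is common. The median difference over all probe sets was 0.11, and -0.03 after quantile normalization (a shift of 0.15). The median of the members was 0.09. Conditions without overlap of the genotypes are counted per gene below, and the share of all probe sets without overlap was not computed.

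Il1a was higher by 0.87 ± 0.14 (1.82-fold, adjusted p = 8.12e-06) and kept its call in all 59 alternatives, with 0.82 to 0.98. It was higher in KO in 7 of 7 conditions, by 0.04 to 1.87 (the lowest, at 4 h after e6 conidia, was -0.13 without WT array 3), and in 4 of them every KO array lay above every WT array. The difference was largest in untreated cells, where KO arrays had 10.20, 10.18 and 8.41, against 7.67, 7.58, 7.67 and 7.98 on WT arrays. The third KO array lay much closer to the WT arrays than the other two did. The untreated difference of 1.87 ± 0.37 was called (adjusted p = 0.00262), in a comparison with 1.99% of all probe sets called, and it was lost without KO array 1 or 2 (1.57 and 1.58, adjusted p = 0.0712 and 0.0566) and in the fit of these 2 groups alone (adjusted p = 0.19). After mock at 2 h it was 1.34 ± 0.37 (adjusted p = 0.0425), with 2.25% of all probe sets called. That call ended in 7 of 15 alternatives, 6 of which left out 1 array. The neutrophil marker mean was 5.04 to 5.68 on KO arrays and 4.80 to 5.48 on WT arrays in untreated cells, and 6.03 to 6.2 on KO arrays and 5.39 to 5.99 on WT arrays after mock at 2 h. Over the 7 conditions 1 of the 11 markers was higher in KO (S100a8, 1.96 ± 0.38) and 1 lower (Csf3r, -0.75 ± 0.12), with a median difference of 0.15. Markers of other cells also differed: of 7 T and NK cell markers 5 were higher in KO (Cd4 by 2.22 ± 0.35) and 1 lower, of 8 monocyte and dendritic cell markers 3 were higher (Itgam by 1.91 ± 0.39) and 1 lower, and of 6 endothelial and stromal markers 3 were higher. Of 9 lung epithelium markers 2 were higher and 2 lower, and of 13 alveolar macrophage markers 3 were higher (Fabp4 by 1.28 ± 0.08) and 1 lower. After quantile normalization Cd3d, Cd3g, Col1a2 and the higher epithelium markers Krt18 and Nkx2-1 lost their call (limma adjusted p of 0.0534 to 0.536). Cd4 (1.96) and Itgam (1.47) kept theirs but were dim, with mean log2 signals of 3.47 and 3.84. The T and NK cell markers summed to a signal of 156 to 193 on KO arrays and 89.6 to 163 on WT arrays in untreated cells, with none listed at 0. The part of other cells in the genotype differences was not tested. At 4 h after mock the Il1a difference was 0.66 ± 0.37 (adjusted p = 0.344), with 4.06% of all probe sets called.

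Il1rn was higher in KO by 0.30 ± 0.11 (adjusted p = 0.0282), in 6 of 7 conditions and without overlap in 2 of them. The call was lost with the 3' to 5' ratio as a covariate (0.26, adjusted p = 0.065) and without KO array 2 of e6 conidia at 2 h (0.25, adjusted p = 0.0595). The second Il1rn probe set gave 0.02 ± 0.14 (adjusted p = 0.944) and the third, under a signal of 50 on 10 arrays, 0.53 ± 0.17 (adjusted p = 0.0155), so the probe sets disagreed here too. Il18 was lower in KO by 0.18 ± 0.04 (adjusted p = 0.00121) in 7 of 7 conditions, by 0.01 to 0.34, with no overlap in 3 of them, and kept its call in all 59 alternatives. The smallest difference, -0.01 in untreated cells, turned to 0.01 without KO array 1 and to 0.02 without WT array 3 or 4. The mean Il18 difference amounts to a 1.13-fold lower level.

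Il1b also read higher in KO before conidia, without a call. Untreated KO arrays had 8.53, 8.65 and 8.28, against 6.85, 6.11, 7.51 and 7.22 on WT arrays, and the groups did not overlap. The difference was 1.56 ± 0.86 (adjusted p = 0.436), and at 2 h after mock, again with no overlap, it was 1.75 ± 0.86 (adjusted p = 0.377). At 4 h after conidia it ran the other way, by -1.68 after e6 and -0.86 after e7 conidia. Without WT array 4 the e6 value was -1.03, and without WT array 3 the e7 value was -0.32; both of these arrays were high in neutrophil markers. At 4 h after mock the difference of 0.43 became 1.87 without WT array 3 and -0.24 without KO array 2. The mean over the 7 conditions was 0.40 ± 0.32 (adjusted p = 0.356), and 0.60 without WT mock array 3 at 4 h (adjusted p = 0.0388) or 0.73 without the 4 arrays high in neutrophil markers (adjusted p = 0.00337). Casp1, Nlrp3 and Pycard gave mean differences of -0.09 ± 0.05, -0.17 ± 0.11 and 0.09 ± 0.08, none called.

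**Figure D5:**
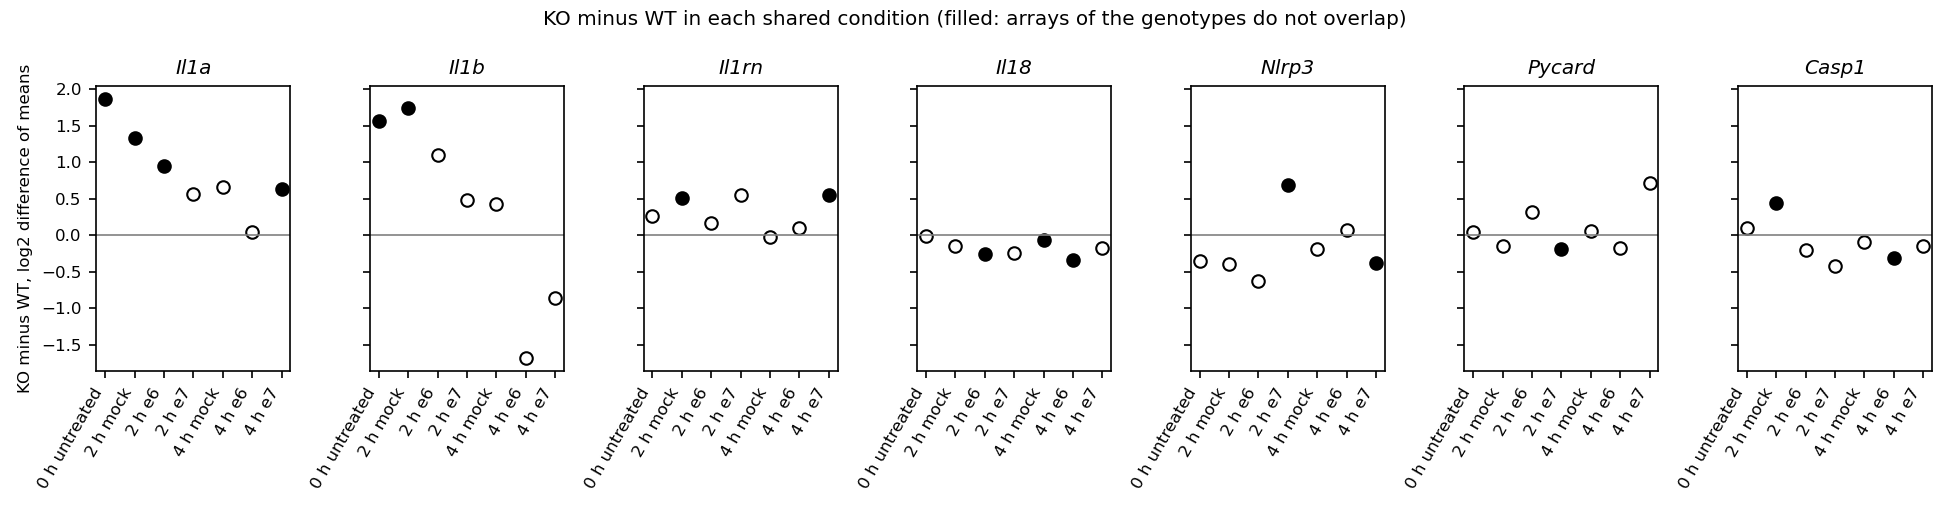
KO minus WT difference of group means (y axis, log2) for each gene in the 7 shared conditions along the x axis; filled points mark conditions in which the arrays of the genotypes do not overlap. Il1a lies above 0 in 7 of 7 conditions and Il18 below 0 in 7 of 7, at -0.01 in untreated cells. Il1b lies below 0 at 4 h after conidia, at -0.86 after e7 conidia with all arrays and -0.32 without WT array 3.

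At 2 h after e6 conidia no member was called in either genotype, nor was any of the 22626 probe sets (limma), while at an unadjusted p under 0.05 there were 1 of 7 members and 865 probe sets in KO, and 0 members and 945 probe sets in WT. The e7 response at 4 h minus that at 2 h gave no called member either. For Il1a it was 1.51 ± 0.56 in KO (adjusted p = 0.147) and 0.77 ± 0.49 in WT (adjusted p = 0.445), and for Casp1 0.36 ± 0.18 in KO (adjusted p = 0.305) and -0.46 ± 0.16 in WT (adjusted p = 0.0954). Of all probe sets, 1.7% were called in the KO and 2.73% in the WT comparison.

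Mock treatment and beads gave no called member. Mock minus untreated differences at 4 h were -0.27 ± 0.40 in KO and 0.94 ± 0.34 in WT for Il1a, and 1.08 ± 0.91 in KO and 2.21 ± 0.79 in WT for Il1b. Without WT mock array 3 the WT differences were 0.58 for Il1a and 0.77 for Il1b, and without KO mock array 2 the KO difference of Il1b was 0.40. These comparisons had 1.2% of all probe sets called in KO and 0.0133% in WT. The 2 bead arrays, from WT at 4 h, read 9.75 and 8.45 for Il1a and 11.18 and 8.48 for Il1b. The 2 arrays lay far apart for both genes. Beads minus mock gave 0.43 ± 0.42 for Il1a and 0.70 ± 0.97 for Il1b, with 1.14% of all probe sets called. Without WT mock array 3 these were 0.80 (adjusted p = 0.35) and 2.14 (adjusted p = 0.143). E7 conidia minus beads gave 1.25 ± 0.42 for Il1a (adjusted p = 0.083), with 3.59% of all probe sets called.

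Other genes of the pathway were counted from lists. Of 12 genes that interleukin-1 raises in many cells, none was called in KO at 4 h after e7 conidia, where 0.00442% of all probe sets were called. The KO median difference was 0.20. After quantile normalization 1 of the 12 was called higher there. In WT at the same dose and time, where 5.84% of all probe sets rose and 9.68% fell, 4 rose and none fell: the neutrophil chemoattractants Cxcl1 (4.48 ± 0.50, adjusted p = 4.09e-07) and Cxcl2 (3.95 ± 0.69), the adhesion molecule Icam1 (0.93 ± 0.19) and the NF-kB inhibitor Nfkbia (0.50 ± 0.13). The WT median was 0.79. The KO minus WT median difference in response was -1.14, with none of the 12 called. At 2 h after e7 conidia Cxcl1 rose in KO (2.19 ± 0.58, adjusted p = 0.018) and in WT (2.89 ± 0.50, adjusted p = 0.00226), and Cxcl2 rose in WT (4.12 ± 0.69, adjusted p = 0.00135). Several of the 12 were dim, with mean log2 signals from 1.89 to 4.93, and the medians include them. The list genes are also raised by other stimuli.

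Of 10 measured genes that carry the receptor signal, Traf6 (0.77 ± 0.20) and Ikbkb (0.39 ± 0.12) rose and the adaptor Myd88 (-0.52 ± 0.15) and the kinase Irak1 (-0.80 ± 0.26) fell in WT at 4 h after e7 conidia, with a list median of -0.03. After quantile normalization Irak1 and Ikbkb kept their sign and lost their call (adjusted p = 0.0761 and 0.0857). In KO at 2 h after e7 conidia, where 6.11% of all probe sets rose, 3 of the 10 rose, among them Map3k7, the kinase TAK1 (1.41 ± 0.23, adjusted p = 0.000339), and its KO minus WT difference in response was 1.28 ± 0.30 (adjusted p = 0.0233). Of 8 measured receptors and decoys none was called in either comparison, with medians of 0.44 in KO at 2 h and -0.08 in WT at 4 h. After quantile normalization the KO median was -0.05 and 1 of the 8 was called lower.

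Of 7 measured inflammasome sensors, Naip2 fell in WT at 4 h after e7 conidia (-0.42 ± 0.14, adjusted p = 0.0354), and Naip6 (0.51 ± 0.16) rose beside Nlrp3 in KO at 2 h, a call that Naip6 too lost after quantile normalization (0.48, adjusted p = 0.083). Of 11 measured core and effector genes, Ctsb, the lysosomal protease cathepsin B, fell beside Casp1 in KO at 2 h (-0.44 ± 0.12, adjusted p = 0.0201), a call lost after quantile normalization (-0.19, adjusted p = 0.299). Averaged over the 7 shared conditions, 3 of the 11 were higher in KO and 3 lower, where 21.9% of all probe sets were higher and 11.6% lower. Higher were Ctsb (0.48 ± 0.04, adjusted p = 1.44e-11), the non-canonical inflammasome protease Casp4 (0.52 ± 0.08, adjusted p = 2.08e-06) and the channel Panx1 (0.32 ± 0.08). Lower were the NLRP3 partner Nek7 (-0.39 ± 0.06, adjusted p = 7.7e-06), Txnip (-0.24 ± 0.08) and Gsdme (-0.29 ± 0.10), the last not called after quantile normalization (adjusted p = 0.0527). The sensor Naip5, which detects bacterial flagellin, was also lower in KO (-0.55 ± 0.06, adjusted p = 7.35e-09). Of the other sensors, Naip6 was lower (-0.25 ± 0.06, adjusted p = 0.00092) and Aim2 higher (0.44 ± 0.17, adjusted p = 0.0442). Aim2 was not called after quantile normalization (adjusted p = 0.323).

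The members differed in which genes followed them over the 15 group means. Among 6266 genes with a mean log2 signal of at least 7, the 3 most like Il1a were Maff (Pearson r = 0.93), Srxn1 (0.90) and Ccrl2 (0.90). Those most like Il1b were Nfkbiz (0.94), Socs3 (0.93) and Ier3 (0.91), and those most like Nlrp3 were Kif3b (0.89), Cebpb (0.84) and Rapgef1 (0.84). Pycard ran with the proteasome genes Psmd4 (0.95) and Psmg4 (0.94) and the translation factor Eif3k (0.94). Il1rn ran with Alyref (0.85), Ubxn1 (0.84) and Ncf1 (0.84), Il18 with Zscan26 (0.92), Ntpcr (0.88) and Ddhd2 (0.88), and Casp1 with Dleu2 (0.88), Wwp1 (0.87) and Trim30a (0.85). Taking the highest of 6266 values favours a high r. Over the 51 arrays the r of these genes with their member was lower, from 0.43 (Ubxn1 with Il1rn) to 0.91 (Nfkbiz with Il1b). Among the members themselves, Il1a and Il1b had the highest r over group means (0.83, and 0.70 over arrays within groups), and Nlrp3 and Pycard the lowest (-0.75, and -0.13 within groups). Groups share genotype, time and dose and the arrays share their scaling, so these values describe the 15 groups only.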

How the data were processed

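RNA of alveolar macrophages was measured on 51 Affymetrix arrays in 15 groups. The deposited tables give each probe set's intensity on every array, not log-transformed. GCOS and RMA were used by the authors, per the submitters' processing notes, with no version or role given. The equal trimmed means of all arrays and their unequal distributions are those of per-array scaling, which can shift all differences of a comparison together. Precision is limited by the number of arrays.

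Of 22690 probe sets, 64 controls were left out and 22626 tested. The platform annotation gave 20380 of them 1 symbol, 691 several and 1555 none. Signals were taken to log2 with no pseudocount, filter or further normalization, and tested two-sided by limma's moderated statistics (version 3.58.1, under R 4.3.3) with 1 mean per group over all 51 arrays, in code checked on simulated data. The spread is pooled over the groups, so an error understates a group whose arrays varied more. P-values were adjusted by Benjamini-Hochberg within each of 29 comparisons. ± is the limma standard error unless SD is stated.

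Genes named were the 7 members, list genes called in a comparison, the 3 genes most like each member over the group means, and Cybb. The markers named (S100a8, S100a9, Mmp9, Elane, Camp, Mmp8, Mpo, Csf3r, Cd4, Itgam and Fabp4) were chosen after their values were seen. The members, lists and tests were chosen with earlier results of these data known. Replicate numbers were not used to pair the arrays: in no comparison did every same-numbered pair correlate above 0.1. That criterion cannot exclude a link between some same-numbered arrays. Promoter sequences are from RefSeq, GRCm38.p6. Alternatives were array weights, quantile normalization, a floor of 50, dim probe sets (mean signal under 100) left out, the mean of all probe sets of a gene, the 3' to 5' ratio as a covariate, only the groups compared, a replicate block, untreated in place of mock, and leaving out arrays.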

Additional observations from a re-analysis of the deposited data

Results flagged for a closer look

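Within groups of 4 arrays, 49 combinations of gene and group were searched for 1 array far from the other 3 (Dixon's ratio), and 3 were found. Chance gives about 1 in 20. Il1b read 13.45 on WT mock array 3 at 4 h, with the nearest other array at 7.86. WT mock array 3 also had the highest neutrophil marker mean of all 51 (8.26). Its monocyte and dendritic cell marker mean was 7.47, against 6.13 to 6.65 on the other arrays of its group. Il1rn read 10.94 on WT array 3 at 2 h after e7 conidia, with the nearest at 10.35. Pycard read 11.25 on WT array 3 at 4 h after e6 conidia, with the nearest at 10.53.

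The response of Casp1 to e7 conidia at 2 h differed between the genotypes: the KO minus WT difference in response was -0.87 ± 0.17 (adjusted p = 0.00625; limma). Casp1 fell by 0.59 in KO, where every e7 array lay below every mock array, and the WT difference was 0.27. The call on the difference in response was lost with only the groups compared in the fit (adjusted p = 0.0629). KO mock arrays at 2 h read higher than WT mock arrays by 0.45 and enter that difference. Against untreated KO cells the KO difference was -0.36, without a call.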

How the results depend on the processing

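Over 203 differences of single members and 3808 alternatives, 3553 kept their direction and their side of the threshold, 163 stayed without a call and changed sign, 66 lost the call, 25 gained one and 1 called difference changed sign. The reversed one was Pycard in KO at 2 h, e7 minus e6 conidia, at 0.14 with the mean of its probe sets.

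With only the groups compared in the fit, the number of called members became 0 in WT at 4 h for e7 conidia minus mock (3 as reported) and minus e6 conidia (1), in KO at 2 h for e7 minus e6 conidia (2), in the 2 h e7 response between genotypes (1), and in KO minus WT untreated (1) and after 2 h mock (2). It became 1 in KO at 2 h for e7 conidia minus mock (2), as it did there with the 3' to 5' ratio, quantile normalization or untreated cells as reference. Without WT e7 arrays 2 and 3 it was 0 for both WT 4 h comparisons of e7 conidia with mock and e6 conidia. With the mean of all probe sets it was 0 for e7 minus e6 conidia in WT at 4 h and 1 in KO at 2 h.

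Where no member was called, array weights gave 1 in KO for e7 conidia minus mock at 4 h, for e7 minus e6 conidia at 4 h and for the response at 4 h minus 2 h. A floor of 50 and leaving out dim probe sets each gave 1 for KO e7 minus e6 conidia at 4 h, for the WT response at 4 h minus 2 h and for e7 conidia minus beads. For e7 minus e6 conidia in WT at 4 h, with 1 called as reported, leaving out dim probe sets gave 2. Without the arrays high in neutrophil markers it was 1 for WT e6 conidia minus mock at 4 h and 1 for KO minus WT after 4 h mock, and with untreated cells as reference 2 for WT e6 conidia minus mock at 4 h. The causes were not tested.

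Leaving out 1 array gave 0 to 1 called members for WT e6 conidia minus mock at 4 h, 1 to 4 for WT e7 conidia minus mock at 4 h, 1 to 1 for KO e7 conidia minus mock at 2 h, 0 to 2 for WT e7 minus e6 conidia at 4 h, 0 to 1 for KO e7 minus e6 conidia at 2 h, 0 to 1 for KO minus WT untreated and 0 to 2 after 2 h mock. A replicate block gave 3 called members for WT e7 conidia minus mock at 4 h and 4 for KO minus WT over 7 conditions, where Casp1 was added (-0.12, adjusted p = 0.0484). Same-numbered arrays correlated at -0.27 to 0.58, and the numbers were not used as pairs. In KO at 4 h, e7 against e6 conidia, 3 of 3 arrays correlated best with their own number (0.04 to 0.15). Groups of 2 to 4 arrays limit what differences can be called.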

Other observations

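Il36a, an epithelial interleukin-1 family ligand listed by the platform as Il1f6, was dim (mean log2 signal 5.38) and read higher in KO, averaged over the 7 shared conditions, by 0.66 ± 0.13 (adjusted p = 0.000147; limma). After quantile normalization the difference was 0.38 (adjusted p = 0.0328). In KO at 2 h after e7 conidia Il1f6 rose by 1.15 ± 0.37 (adjusted p = 0.0456), a call lost after quantile normalization (0.58, adjusted p = 0.386). Sigirr, a receptor that restrains interleukin-1 signalling, was lower in KO over the 7 shared conditions by 0.70 ± 0.18 (adjusted p = 0.00296). Its probe set was dim too, with a mean log2 signal of 5.57. In the comparison over the 7 conditions 33.4% of all probe sets were called.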
